A study of Mus musculus with 22 samples.

Results

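Red cell genes were followed across all 16 RNA libraries of a study of transplanted MC38 tumors, as a measure of the blood held in each tissue piece. The set was chosen by name and holds 6 of the 46882 genes of the deposited table: the adult α-globin genes Hba-a1 and Hba-a2, the adult β-globin genes Hbb-bs and Hbb-bt, the heme synthesis gene Alas2 and the red cell membrane gene Slc4a1. Libraries came from MC38 cells, a mouse colon adenocarcinoma line, labelled day 0 (n = 2), from normal skin labelled WT and day 23 (n = 2), from tumors of wild-type (WT) C57BL/6N mice taken at day 23 and day 46 (n = 3 each) and from tumors labelled RAG1-/- taken at day 13 and day 23 (n = 3 each). MC38 cells had been injected under the skin of the left flank of female mice aged 8 to 12 weeks, and the RAG1-/- mice, of the strain B6.129S7-Rag1tm1Mom/J, lack mature T and B cells. A random piece of each excised tumor was used for RNA, although the labels call the source tumor cells. Each tumor came from a different mouse, whereas nothing says whether the replicates of MC38 cells and of skin were separate cultures or animals, so for these the spread may be technical.

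Hemoglobin is a tetramer of α- and β-globin chains, each carrying heme. Mature mouse red cells have no nucleus, and globin mRNA persists mainly in the youngest circulating cells, the reticulocytes. ALAS2, the erythroid form of 5-aminolevulinate synthase, starts heme synthesis in red cell precursors, and SLC4A1 (band 3) is the anion exchanger of the red cell membrane. In bulk tissue these transcripts are widely read as a sign of blood, because red cells and their precursors are their main source.

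The α genes lie near each other on chromosome 11 (GENCODE, GRCm38, the build mm10): Hba-a1 at chr11:32283511-32284465 and Hba-a2 at chr11:32296489-32297298, both on the plus strand, with 13.0 kb between their starts. The β genes lie on the minus strand of chromosome 7, Hbb-bs at chr7:103826534-103828096 and Hbb-bt at chr7:103812524-103813996, 14.0 kb apart. Alas2 is on the X chromosome (chrX:150547375-150570638, plus strand) and Slc4a1 on chromosome 11 (chr11:102348824-102366203, minus strand). RefSeq promoters (GRCm38.p6) were found for 5 of the 6 genes, all but Slc4a1. The 250 bases before the RefSeq start are shown for 4 of them, and Hba-a2 is left out as nearly the same as Hba-a1. RefSeq places the start of Hba-a1 at base 32283672 of chromosome 11, of Hbb-bs at 103827928 and of Hbb-bt at 103813923 of chromosome 7, and of Alas2 at 150547417 of the X chromosome. These starts lie 161, 168, 73 and 42 bases inside the GENCODE genes given above, so the stretches overlap those genes. Capitals mark matches on either strand to 4 motifs known from globin promoters. The GATA motif was searched as AGATAA and, in a second form, as TGATAA. The element known as the CACCC box was searched by these letters alone. The CCAAT box was searched in the same way. The TATA element was searched as ATATAA.
Hba-a1, chr11:32283422-32283671, plus strand: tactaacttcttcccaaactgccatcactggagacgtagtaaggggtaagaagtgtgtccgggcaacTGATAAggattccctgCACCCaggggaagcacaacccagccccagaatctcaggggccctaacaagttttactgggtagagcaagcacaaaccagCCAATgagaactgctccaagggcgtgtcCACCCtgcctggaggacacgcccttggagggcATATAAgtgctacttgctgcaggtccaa
Hbb-bs, chr7:103827929-103828178, minus strand: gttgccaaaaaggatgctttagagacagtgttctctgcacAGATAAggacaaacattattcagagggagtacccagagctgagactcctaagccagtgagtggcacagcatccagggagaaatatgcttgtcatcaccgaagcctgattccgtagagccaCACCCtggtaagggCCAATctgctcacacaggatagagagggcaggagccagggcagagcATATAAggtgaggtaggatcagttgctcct
Hbb-bt, chr7:103813924-103814173, minus strand: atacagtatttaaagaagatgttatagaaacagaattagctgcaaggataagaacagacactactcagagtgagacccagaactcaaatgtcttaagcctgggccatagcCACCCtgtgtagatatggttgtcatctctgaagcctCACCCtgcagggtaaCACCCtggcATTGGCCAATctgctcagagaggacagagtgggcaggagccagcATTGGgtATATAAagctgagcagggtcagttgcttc
Alas2, chrX:150547167-150547416, plus strand: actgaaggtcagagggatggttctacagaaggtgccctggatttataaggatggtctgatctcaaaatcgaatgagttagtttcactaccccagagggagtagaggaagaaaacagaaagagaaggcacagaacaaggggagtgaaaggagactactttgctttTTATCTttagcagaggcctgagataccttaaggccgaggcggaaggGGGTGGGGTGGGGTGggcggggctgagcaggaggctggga

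The promoter of Hba-a2 shared a run of 247 bases with that of Hba-a1. CACCC was present in the promoters of all 5 genes found and in 52.0% of 32851 mouse promoters of the same length. The CCAAT box was present in all 4 globin promoters and not in that of Alas2, against 33.8% of all promoters, and the same held for the TATA element, against 9.10%. A GATA motif was present in 4 of the 5, all but Hbb-bt, against 16.6% of all promoters. In Hba-a1, the TATA element lay 28 to 23 bases before the RefSeq start and the CCAAT box 88 to 84 bases before it, and in Hbb-bs they lay 30 to 25 and 76 to 72 bases before it. These matches describe the letters only.

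The libraries held 5589151 to 26134241 reads on genes, and 3 reads, taken as the floor of detection, stood at 1.33 to 6.38 normalized counts. Floors and intervals cover counting error only. Values are normalized counts, the reads of a gene divided by the size factor of its library. The targeted gene Rag1 had 1 to 12 reads in the tumors labelled RAG1-/- and 0 or 1 in the WT tumors. Reads lie near the 3′ end of a transcript, and whether the deletion covers that end is not given in the sources used here, so these reads check nothing. Of 10 leukocyte genes, Cd8a, Igkc and Igha were higher in WT than in RAG1-/- tumors at day 23 (limma, adjusted p = 0.00994, 0.000256 and 0.00580). The 6 epithelial genes Krt8, Krt18, Epcam, Cdh1, Cdx2 and Vil1 summed to only 4.28 and 7.82 normalized counts in the MC38 libraries, so the epithelial markers of the labelled line were at or near 0.

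Blood transcripts were abundant in skin and in every tumor and almost absent from the cultured line. The 4 hemoglobin genes summed to 14471 and 7509 normalized counts in skin and to 5.13 and 7.82 in MC38 cells. They summed to 1572, 1859 and 1895 in the RAG1-/- tumors of day 13 and to 5565, 4028 and 9521 in those of day 23. In the WT tumors they summed to 1844, 2549 and 1120.25 at day 23 and to 1397, 10181 and 50895 at day 46. Tumors thus ranged over 45.4-fold, and the WT day 46 group alone held the second lowest and the highest tumor. In that highest tumor, replicate 3 of WT day 46, 0.474% of the reads on genes came from the 4 genes (Wilson 95% interval 0.471% to 0.477%), against 0.00967% to 0.0890% in the other 11 tumors and 0.0510% and 0.0941% in skin. Fewer red cells in a piece and less RNA per red cell cannot be told apart in such bulk samples.

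Ordered by their summed hemoglobin genes, the libraries ran from WT day 46 replicate 3 through skin replicate 1, WT day 46 replicate 2 and RAG1-/- day 23 replicate 3 to skin replicate 2 and the other 2 RAG1-/- day 23 tumors. The 3 WT day 23 tumors, the 3 RAG1-/- day 13 tumors and WT day 46 replicate 1 followed, all between 1120.25 and 2549. The RAG1-/- day 13 and WT day 23 groups overlapped, with mean log2 sums of 10.8 ± 0.148 and 10.8 ± 0.597 (SD, n = 3 each), whereas the 3 RAG1-/- day 23 tumors lay above all 6 of them.

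Hba-a1, which codes for an adult α chain, was at 4571 and 1912 normalized counts in skin and at 1.71 and 5.87 in MC38 cells. It was at 294, 362 and 463 in RAG1-/- tumors of day 13, at 1379, 955 and 2527 in those of day 23, at 379, 467 and 192 in WT tumors of day 23 and at 277, 2999.95 and 14968 in those of day 46. The RAG1-/- day 23 tumors exceeded every tumor of day 13 and every WT tumor of day 23, while the WT day 46 tumors spread from below all of day 13 to above every other tumor. Hba-a2, its copy, ranged from 119 to 11863 in tumors and was at 3554 and 1683 in skin. Of the 50-base windows in the last 300 bases of Hba-a1, 80.1% occur unchanged in Hba-a2, so the split of reads between the α copies is uncertain.

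Hbb-bs, an adult β gene, was at 5331.5 and 3142 in skin and at 0 in both MC38 libraries. It was at 845, 1019.6 and 881 in RAG1-/- tumors of day 13, at 2711, 2081 and 4208 in those of day 23, at 906, 1340.1 and 621 in WT tumors of day 23 and at 640.2, 3899 and 17810.4 in those of day 46. As for Hba-a1, the RAG1-/- day 23 tumors lay above all tumors of day 13 and all WT tumors of day 23. Hbb-bt ranged from 166 to 6254 in tumors, was at 1015 and 771 in skin and had no read in MC38 cells. The β copies are less alike at their ends, with 36.7% of the windows of Hbb-bs found in Hbb-bt.

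Alas2 was at 219.7 and 67.6 in skin and at 0 in MC38 cells. In RAG1-/- tumors it was at 9.63, 12.2 and 20.01 at day 13 and at 39.3, 21.3 and 81.7 at day 23, and in WT tumors it was at 19.2, 16.2 and 4.75 at day 23 and at 10.8, 82.6 and 493 at day 46. Its lowest and highest tumors were those with the lowest and highest summed hemoglobin genes. Alas2 shares 372 of its 2403 exonic bases with genes on the opposite strand, mainly Apex2. The strand setting of the counting is not given in the sources used here. Apex2 was at 215 and 172 in the MC38 libraries, where Alas2 had no read, so reads of Apex2 were not counted as Alas2 there. Whether reads of Alas2 were lost in the shared bases was not tested.

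Slc4a1 was much sparser. It was at 46.9 and 11.5 in skin, at 65.3 in WT day 46 replicate 3 and at 0 in 7 of the 12 tumors and in both MC38 libraries. The remaining tumors were at 2.14 and 1.11 (RAG1-/- day 13), 1.33 (RAG1-/- day 23) and 2.01 (WT day 46), which is at or under 3 reads each. All 6 genes passed the filter of a mean of 5 normalized counts over the tumors, and Slc4a1 passed it only through WT day 46 replicate 3, so tumor comparisons of this gene rest on that library.

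**Figure D1:**
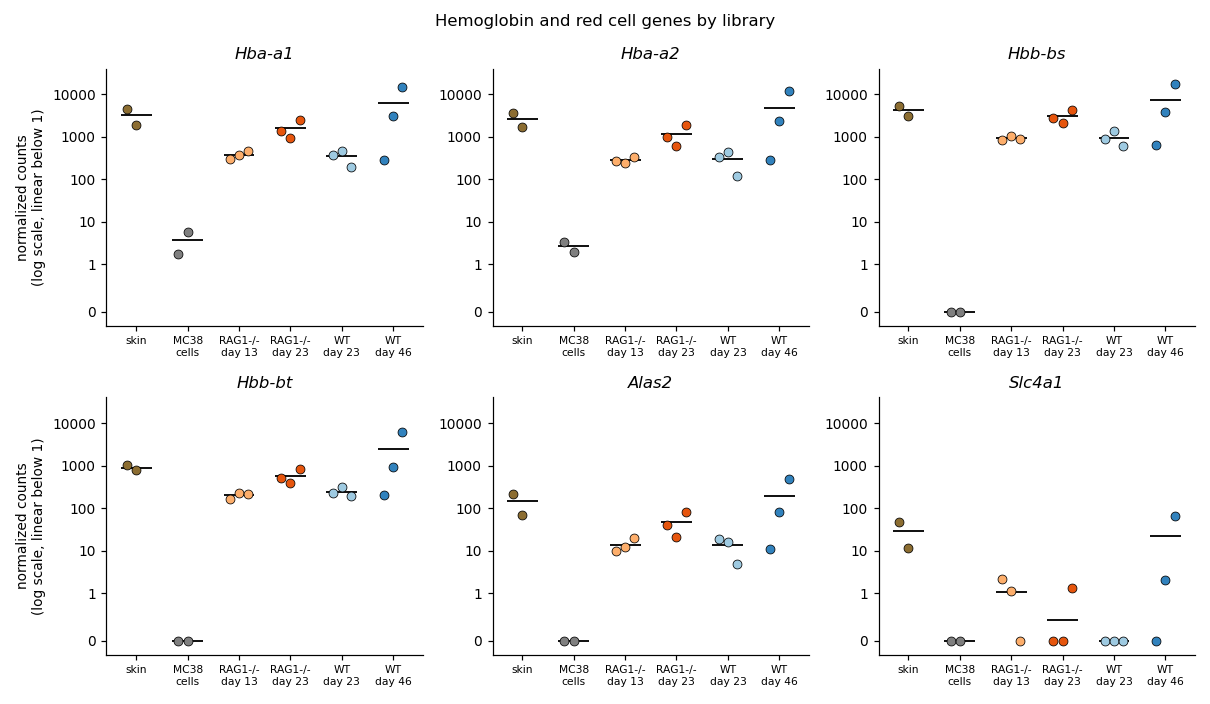
Normalized counts of the 6 genes (log scale, linear below 1) in every library, with points for libraries and a bar at each group mean (n = 2 for skin and MC38 cells, n = 3 for each tumor group). WT day 46 replicate 3 is the highest tumor in all 6 panels, and MC38 cells lie at or below 5.87 throughout.

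The genes varied more between replicate tumors than most genes did. The SD of log2(normalized count + 1) within groups, pooled over the 4 tumor groups, was 1.26 for Hbb-bs, 1.30 for Hbb-bt, 1.503 for Hba-a2, 1.53 for Alas2, 1.54 for Hba-a1 and 1.66 for Slc4a1. The median of the 14746 genes tested was 0.339, and 95.4% to 98.6% of them had a smaller SD than a given member. The spread was unequal between groups: the log2 sum of the hemoglobin genes had an SD of 2.60 in WT day 46, 0.627 in RAG1-/- day 23, 0.597 in WT day 23 and 0.148 in RAG1-/- day 13 tumors.

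At day 23, WT tumors were compared with tumors of RAG1-/- mice, which lack mature lymphocytes. The mice also differ in strain, and the authors report faster tumor growth in RAG1-/- mice. Lymphocytes, strain and tumor growth cannot be told apart in this comparison. All 4 hemoglobin genes and Alas2 were lower in each of the 3 WT tumors than in each of the 3 RAG1-/- tumors, that is 5 of the 6 members, whereas 7.62% of the 14746 genes tested were lower without overlap. The mean sum was 1838 in WT and 6371 in RAG1-/- tumors, 0.288 times as high. Log2 differences were -2.20 (SE 0.91) for Hba-a1, -2.02 (SE 0.90) for Hba-a2, -1.66 (SE 0.75) for Hbb-bs, -1.21 (SE 0.78) for Hbb-bt and -1.74 (SE 0.96) for Alas2, and their median over the 6 members was -1.70 against 0.01 over all genes. None of the 6 members passed the threshold of 0.05 (limma, adjusted p = 0.385 to 0.937), and 0.278% of all genes did. At an unadjusted p under 0.05, limma listed 3 members, Hba-a1, Hba-a2 and Hbb-bs, and 4.8% of all genes as lower. edgeR and DESeq2 on the recovered reads called 0 members, and DESeq2 gave 5 of the 6 an adjusted p. With only these 6 tumors in the fit, limma called Hba-a1 and Hbb-bs lower (adjusted p = 0.0241 and 0.0273), beside 0.0962% of all genes. The log2 sum differed by -1.78, for which the two-sided exact permutation test gave p = 0.1, the smallest that 3 against 3 tumors allow.

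In RAG1-/- tumors the values of day 23 were above those of day 13 for the 4 hemoglobin genes and Alas2. These 5 members were higher in all 3 later tumors than in all 3 earlier ones, against 9.48% of all genes, and the mean sum was 3.59 times as high (6371 against 1775). Log2 differences were 2.02 (SE 0.91) for Hba-a1, 1.88 (SE 0.90) for Hba-a2, 1.65 (SE 0.75) for Hbb-bs, 1.45 (SE 0.78) for Hbb-bt and 1.55 (SE 0.96) for Alas2, with Slc4a1 at -0.50 (SE 1.29). None passed (limma, adjusted p = 0.409 to 0.924), nor did any other gene (0.0%). At an unadjusted p under 0.05 limma listed 2 members, Hba-a1 and Hbb-bs, and 5.54% of all genes as higher, and edgeR and DESeq2 called 0 members. A fit of these 6 tumors alone called the same 2 genes (adjusted p = 0.0321 and 0.0268), beside 0.116% of all genes. The difference of the log2 sum was 1.76, with an exact permutation p = 0.1, again the smallest possible. The 10 skeletal muscle genes had a summed level of 68.1 to 111 at day 23, against 413 to 10276 at day 13. Of 15 endothelial genes 11 had a negative log2 difference, 3 of them at an unadjusted p under 0.05 in limma. All 10 muscle genes had an unadjusted p under 0.05 in limma and 0 passed its adjusted threshold, while DESeq2 called 8, and their part in the hemoglobin values was not tested. This comparison and the previous one share the RAG1-/- day 23 tumors, so they are not independent.

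The WT tumors of day 46 were unlike each other when set against those of day 23. Replicate 1 of day 46 lay within the range of the day 23 tumors in its sum, and replicates 2 and 3 were above it. Log2 differences were 1.96 to 2.95 for the hemoglobin genes (SE 0.75 to 0.91), 2.64 (SE 0.96) for Alas2 and 2.55 (SE 1.29) for Slc4a1. No member passed in limma (adjusted p = 0.418 to 0.612, 0.0% of all genes), although 5 members and 4.65% of all genes were higher at an unadjusted p under 0.05. edgeR called 0 members, and DESeq2 called Hba-a1 and Hba-a2 higher (adjusted p = 0.0215 and 0.0301), with 0.17% of all genes. The log2 sum differed by 2.37 (two-sided exact permutation p = 0.3) and by 1.12 without replicate 3 of day 46. Without replicate 1 of day 46 it differed by 3.71, and limma then called 3 members, Hba-a1, Hba-a2 and Hbb-bs, beside 0.034% of all genes. Endothelial genes lay in the same direction: their sum was 1358 to 1469 at day 23 and 1635.5 to 3029.5 at day 46 without overlap, and 13 of 15 had a positive log2 difference (median 0.70). Of these, 4 had an unadjusted p under 0.05 and 0 passed in limma (lowest adjusted p = 0.385). Within day 46 the order differed, since replicate 3, the highest in hemoglobin, had the lowest endothelial sum, 1635.5. Over the 12 tumors the endothelial list had Pearson r = 0.064 with the summed hemoglobin genes. Of the 6 platelet genes tested, 3 were higher at an unadjusted p under 0.05. The part of these cells in the hemoglobin values was not tested. The WT day 23 tumors also serve in the comparison with RAG1-/- tumors.

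Over both days, with 6 tumors of each kind, the sums of WT and RAG1-/- tumors overlapped widely, at 1120.25 to 50895 against 1572 to 9521. The log2 sum differed by 0.28 (two-sided exact permutation p = 0.792), and by -0.46 without WT day 46 replicate 3. No member passed (limma, adjusted p = 0.746 to 0.948, 0.712% of all genes), and none had an unadjusted p under 0.05 or was called by edgeR or DESeq2. Whether the change with day differed between the kinds of mice was tested as an interaction, and no member passed there either (limma, adjusted p = 0.684 to 0.964, 0.0% of all genes, 0 members at an unadjusted p under 0.05 and 0 by edgeR or DESeq2). For Hba-a1 the interaction was 0.81 (SE 1.29), and -0.53 without WT day 46 replicate 3. The days differ between the kinds of mice, day 13 and 23 against day 23 and 46, so day and genotype cannot be told apart in the comparison over both days.

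The mean sum of the hemoglobin genes was 7702 in the 12 tumors and 10990.0 in skin, and the groups overlapped for every member. Slc4a1 was the single member called, at a log2 difference of -3.65 (SE 1.01, limma adjusted p = 0.00521), while 36.6% of the 16158 genes tested were lower. Alas2 and Hba-a2 missed the threshold with log2 differences of -2.15 (SE 0.92) and -1.97 (SE 0.85) and an adjusted p = 0.0539 for each, and Hba-a1, Hbb-bs and Hbb-bt stood at -1.88, -1.26 and -1.12 (adjusted p = 0.0758, 0.132 and 0.194). No member was lower in all tumors than in both skin libraries, against 32.3% of all genes. edgeR likewise called Slc4a1 alone (adjusted p = 0.00759), whereas DESeq2 gave Slc4a1 no adjusted p and called Alas2 alone (adjusted p = 0.0304). The median log2 difference was -1.93 over the members and -0.18 over all genes, and rescaling to equal totals moved the latter to 0.23 with every member still lower. The log2 sum differed by -1.54 (two-sided exact permutation p = 0.209).

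Single libraries decided this call. Without WT day 46 replicate 3 the log2 sum differed by -1.89 (exact permutation p = 0.0385), and limma called the 5 members that were still tested, all but Slc4a1, lower, beside 37.2% of all genes. Without WT day 46 replicate 1 limma called 4 members (37.1% of all genes) and without RAG1-/- day 23 replicate 3 it called 3 (36.6%). Without skin replicate 1, the skin library with more blood transcripts, it called 0 (28.7%), with Slc4a1 at -2.67 (adjusted p = 0.145). With the replicate number as a block 4 members were lower (36.1% of all genes).

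The culture gave the background of the measurement. Each MC38 library held a handful of α reads, 6 and 8, and no read of Hbb-bs, Hbb-bt, Alas2 or Slc4a1. The mean α sum was 579-fold higher in tumors and 905-fold higher in skin than in MC38 cells. Taking the mean floor of 3 reads per library for MC38 cells, 2.75 normalized counts, the mean β sum was at least 1437-fold higher in tumors and at least 1866-fold higher in skin, and mean Alas2 was at least 24.6-fold and 52.2-fold higher. The tumor means lean on WT day 46 replicate 3. Without it the α sum was 255-fold higher, the β sum at least 772-fold and Alas2 at least 10.5-fold, and in the lowest tumor they stood at 47.9-fold, at least 294-fold and at least 1.73-fold. In the limma fit 5 members were higher in tumors than in MC38 cells, all but Slc4a1 (adjusted p = 5.51e-09 to 9.90e-04, 16.5% of all genes higher), and these 5 did not overlap, as did 14.7% of all genes. All 6 were higher in skin (adjusted p = 2.29e-08 to 0.00673, 37.9% of all genes), without overlap, as were 48.6% of all genes, and without skin replicate 1 Slc4a1 no longer passed (limma, adjusted p = 0.0929). The log2 sum differed by 8.93 between tumors and MC38 cells (exact permutation p = 0.011, the smallest that 12 against 2 libraries allow) and by 10.5 between skin and MC38 cells, where 2 against 2 allow no p below 0.333. The MC38 libraries serve in both comparisons.

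**Figure D2:**
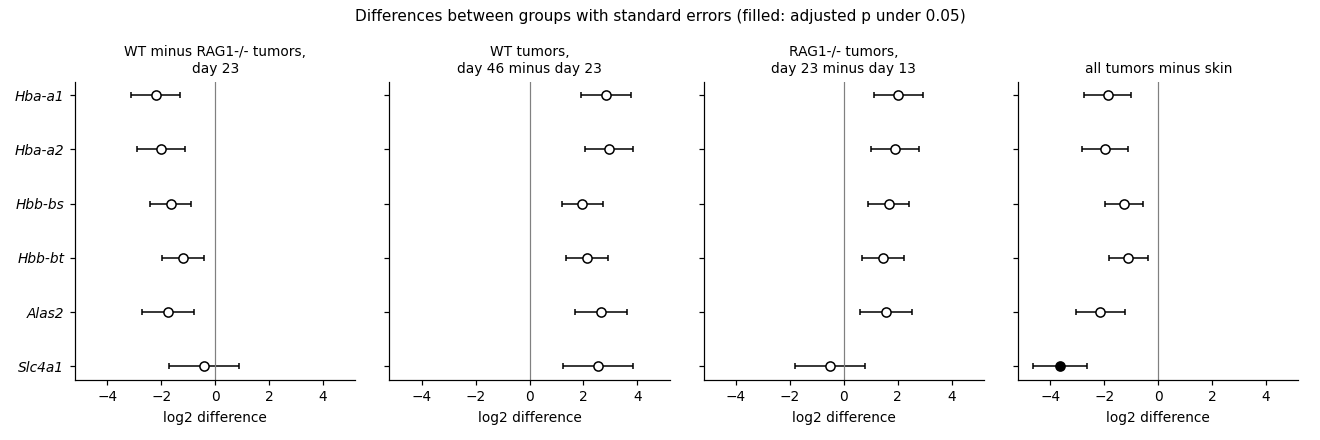
Log2 differences of the 6 genes (points, limma) with standard errors (bars) in 4 comparisons, filled where the adjusted p was under 0.05. Slc4a1 in tumors against skin, at -3.65, is the only filled point, and Slc4a1 has the longest bar in each panel.

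The make-up of the hemoglobin reads differed between libraries beyond counting error. Reads of the α genes made up 27.7% of the hemoglobin reads in WT day 23 replicate 3 (Wilson 95% interval 24.6% to 31.1%, 707 reads) and 52.8% (52.0% to 53.6%) and 52.7% (52.4% to 53.1%) in WT day 46 replicates 2 and 3. The other 9 tumors lay between 32.7% and 46.8%, and skin was at 56.1% and 47.9%. As ratios of α to β reads these were 0.384, 1.12 and 1.11 in the 3 named tumors and 1.28 and 0.919 in skin. The 3 tumors with the largest sums, these 2 of WT day 46 and RAG1-/- day 23 replicate 3 at 46.8%, had the largest α shares of all tumors. Such ratios compare reads, not mRNA levels per length, and the MC38 libraries, with 14 α reads and 0 β reads in all, had too few for a ratio.

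Between the copies the split was steadier. Hba-a1 took 49.6% to 61.7% of the α reads in tumors and 56.3% and 53.2% in skin. Hbb-bt took 15.5% to 26.0% of the β reads in tumors, with the highest share, 26.0% (25.6% to 26.4%), in WT day 46 replicate 3, and 15.998% and 19.7% in skin.

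Alas2 stayed in a narrow proportion to the hemoglobin genes. It had 4.24 to 10.6 reads per 1000 hemoglobin reads in tumors, 9.68 (Wilson 95% interval 9.03 to 10.4) in WT day 46 replicate 3 and 4.24 (1.44 to 12.5) in the tumor with the least hemoglobin. Skin had 15.2 (13.0 to 17.7) and 8.998 (6.87 to 11.8). The intervals of the other 11 tumors all overlapped that of WT day 46 replicate 3. Slc4a1 had 3.24 and 1.53 reads per 1000 hemoglobin reads in skin and 1.28 (1.06 to 1.55) in WT day 46 replicate 3. It had 0.198 (0.0673 to 0.582) in WT day 46 replicate 2 and 0.139 (0.0473 to 0.409) in RAG1-/- day 23 replicate 3. These 2 intervals lie below that of WT day 46 replicate 3. RAG1-/- day 13 replicates 1 and 2 stood at 1.36 (0.373 to 4.97) and 0.598 (0.106 to 3.39), from 2 reads and 1 read, and their intervals overlap it.

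**Figure D3:**
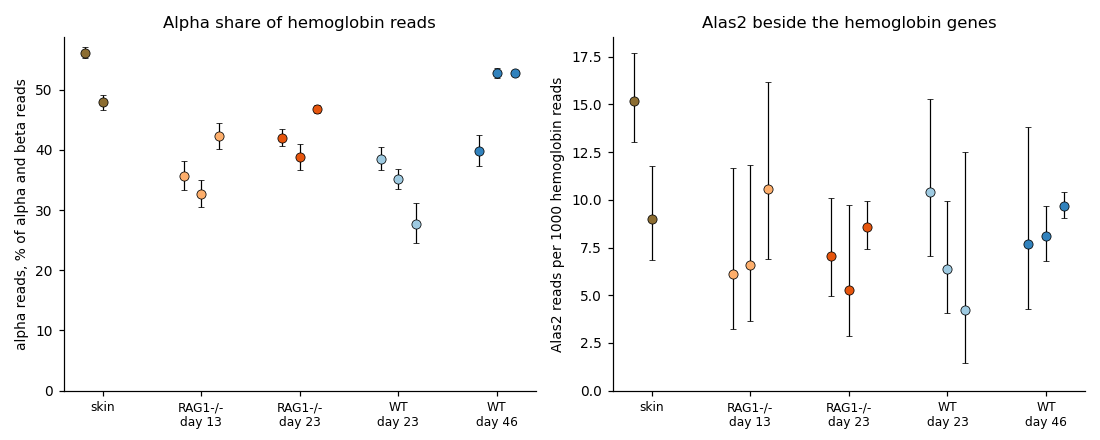
Share of α reads among the hemoglobin reads (left, %) and Alas2 reads per 1000 hemoglobin reads (right) in skin and tumor libraries, with Wilson 95% intervals as bars. The α share runs from 27.7% to 52.8% in tumors, while the Alas2 intervals of the tumors overlap broadly.

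Over the 12 tumors the levels of the members were closely correlated, except for Slc4a1. Log2 levels of the 6 pairs of hemoglobin genes had Pearson r = 0.971 to 0.993 and Spearman rho = 0.909 to 0.972 (permutation test with 100000 resamples, p = 1e-05 to 2e-05 for r, where 1e-05 is the smallest it can give, and adjusted p up to 3.3e-05 over 15 pairs). Alas2 followed each hemoglobin gene with r = 0.967 to 0.990 and rho = 0.923 to 0.972 (permutation p up to 3e-05, adjusted p up to 4.5e-05). Without the 2 tumors farthest from the median, r was still 0.937 to 0.980 between hemoglobin genes and 0.899 to 0.972 for Alas2. As residuals from the 4 group means, r was 0.958 to 0.989 and 0.950 to 0.988. Reads shared between near-identical copies enter the pairs within α and within β.

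For Slc4a1 the relation rested mainly on WT day 46 replicate 3, where it was at 65.3 against at most 2.14 in the other tumors. Its r with the other 5 members was 0.766 to 0.839 (permutation p up to 0.012, adjusted p up to 0.012), but rho was 0.359 to 0.476 (permutation p up to 0.25), and without the 2 farthest tumors r was 0.067 to 0.252. WT day 46 replicate 3 was also the highest tumor for every other member, and only through it did Slc4a1 pass the filter. The p-values of r therefore show no relation over the tumors at large.

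Among 14740 other genes, those most like the summed hemoglobin genes over the 12 tumors included 4 genes that are not known mainly from red cells. Zfp580, a zinc finger gene, had r = 0.938, rho = 0.965 and r = 0.892 without the 2 farthest tumors, and it was at 17.4 to 176 in tumors and at 24.8 and 42.0 in MC38 cells. Fam101b had r = 0.938 and rho = 0.769, and it was at 420 to 1085 in tumors and at 229 and 276 in MC38 cells. Smarcd1, a chromatin remodeling subunit, had r = 0.936 and rho = 0.909, and Chd9, a chromodomain helicase, had r = 0.930 and rho = 0.804. Without the 2 farthest tumors r fell to 0.797 for Fam101b, 0.822 for Smarcd1 and 0.747 for Chd9. All 4 were expressed in MC38 cells, where the β-globin genes had no read. In all, 11 of the 14740 genes had r over 0.9 and 21 had r under -0.9, so an r of this size also occurs in the opposite direction.

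**Figure D4:**
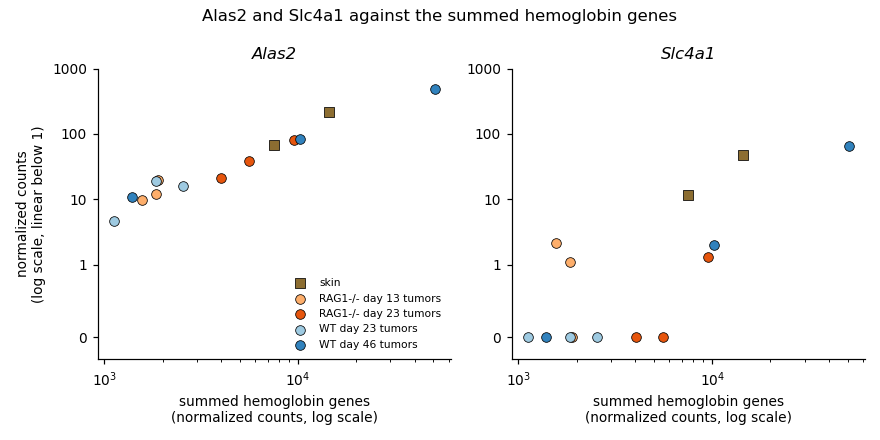
Normalized counts of Alas2 and Slc4a1 (vertical axes, log scale, linear below 1) against the summed hemoglobin genes (horizontal axes, log scale) in tumors (circles) and skin (squares). Alas2 climbs with the sum up to WT day 46 replicate 3, at 493, whereas Slc4a1 is at 0 in 7 of the 12 tumors.

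Other red cell genes were mostly sparse or broadly expressed. Of 21 red cell membrane and blood group genes, 11 passed the filter in tumors, and 1 was called in the comparison of WT with RAG1-/- tumors at day 23. This was Slc14a1, a urea transporter that carries the Kidd blood group, at 5.90, 3.41 and 1.58 in WT and at 52.4, 61.7 and 77.8 in RAG1-/- tumors (log2 difference -3.90, SE 0.65, limma adjusted p = 0.0227). It was at 62.5 and 45.9 in MC38 cells, so it is not particular to blood in these samples, and its adjusted p was 0.0507 to 0.140 when any 1 of the 6 tumors was left out. Between days limma and edgeR called 0 of the 11 genes (2 in WT and 4 in RAG1-/- tumors at an unadjusted p under 0.05 in limma), and DESeq2 called Ank1 and Slc14a1 in RAG1-/- tumors. These 2 went opposite ways from day 13 to day 23, with limma log2 differences of -3.61 (SE 1.04) for Ank1 and 3.21 (SE 0.65) for Slc14a1. Epb42, which codes for a protein of the red cell membrane skeleton, was at 7.53 in WT day 46 replicate 3 and at 5.16 or less in every other tumor. Trim10 was at 13.2 there and at 4.03 or less in every other tumor. Of the 20 genes of this list above 0 in a tumor, 7 had their highest tumor value there. Others did not, such as Sptb and Ank1, which were highest in RAG1-/- day 13 replicate 3. The share over all genes tested was 14.0%, but those genes had passed the filter, which Epb42 and Trim10 did not.

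Of 18 genes of red cell enzymes and cytosol, 16 were in the table, 12 were tested, and limma and edgeR called 0 between the tumor groups of day 23 or between days (3 at an unadjusted p under 0.05 in each comparison in limma, with a median log2 difference of -0.06 at day 23). DESeq2 called Fam46c at day 23, which was higher in WT tumors (limma log2 difference 1.40, SE 0.30), opposite to the hemoglobin genes. Car2, a carbonic anhydrase found in red cells, was at 59.6 in WT day 46 replicate 3 and at 19.4 or less in the other tumors, whereas Car1 was at 0 in it and had reads in only 2 tumors. Of the 11 other genes of heme synthesis, all tested, limma, edgeR and DESeq2 called 0 in the same comparisons (1 at an unadjusted p under 0.05 in each in limma). Fech, which inserts iron into protoporphyrin to form heme, had its highest tumor value of 755 in WT day 46 replicate 3 but was at 427 and 492 in MC38 cells. Among the genes that passed the filter, 4 of 12 enzyme genes and 4 of 11 heme synthesis genes had their highest tumor value in that tumor, as did 1 of 11 membrane genes and 1 of 7 precursor regulators, against 14.0% of all genes tested.

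Regulators of nucleated red cell precursors differed widely in level. Gata1, the erythroid master regulator, did not exceed 0.977 normalized counts in any tumor and Gfi1b did not exceed 1.34, both under the floor of 3 reads, and both were at 0 in skin. Klf1 reached 6.71 in WT day 46 replicate 2, above the floor of 2.01 there. The embryonic genes Hbb-y, Hbb-bh1 and Hba-x did not exceed 1.88 in any tumor. Of 13 precursor regulators 7 were tested in tumors, and limma, edgeR and DESeq2 called 0 between the tumor groups of day 23 or between days (0 or 1 at an unadjusted p under 0.05 in limma). Tfrc, the transferrin receptor, led this list at 2441 to 6639 in tumors and at 8238 and 9072 in MC38 cells. Of the 8 regulators tested against MC38 cells, 4 were higher and 1 was lower in tumors at an unadjusted p under 0.05 in limma.

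The tumor with the most hemoglobin reads was not the highest in the summed endothelial, platelet, neutrophil or adipocyte lists. The adipocyte list summed to 656 in it and reached 955 in RAG1-/- day 13 tumors. Single genes could still be highest in it, such as Adipoq at 34.5 and Cd3e at 23.2, whereas others, such as Pf4 and Lyz2, were not. The endothelial list of 15 genes summed to 1635.5 in that tumor, WT day 46 replicate 3, within a range that ran from 961 in RAG1-/- day 23 replicate 1 to 3029.5 in WT day 46 replicate 2. The platelet list of 14 genes, led by Pf4 and F13a1, was at 1163 in that tumor and between 1036 and 3870 in the others. The neutrophil list summed to 1862 in RAG1-/- day 23 replicate 3 and to 1000.1 in WT day 46 replicate 3, but Mmp9 made up 1748 and 846 of these, and Mmp9 was at 215 and 206 in MC38 cells. Without Mmp9, a choice made after seeing the data, the list was highest in RAG1-/- day 13 replicate 3, at 274, and was at 113 and 154 in the named tumors. Of these lists 15, 6 and 8 genes were tested, and limma and edgeR called 0 between the tumor groups of day 23 or between days, with at most 4 of a list at an unadjusted p under 0.05 in limma. Those 4 were endothelial genes that were higher in WT tumors of day 46. DESeq2 called Ppbp of the platelet list at day 23 and Mmp9 of the neutrophil list between the days of RAG1-/- tumors. In the limma fit all 15 endothelial and all 10 leukocyte genes were higher in the mean of the 4 tumor groups than in MC38 cells. Their adjusted p was at most 0.0145, and 16.5% of all genes were higher. Cd3e had no read in any RAG1-/- tumor or in MC38 cells, so it was higher through the WT tumors only. Cd8a and Igkc had no read in the RAG1-/- tumors of day 13.

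Skin and muscle genes marked other tumors. Of 10 skeletal muscle genes the sum was 9756 and 10276 in RAG1-/- day 13 replicates 1 and 3 and at most 1572 in the other 10 tumors, and these tumors were among those low in hemoglobin. The 10 keratinocyte genes summed to 2104 in WT day 23 replicate 2 and to 238 to 715 in the other tumors, against 412147 and 417937 in skin. In WT day 46 replicate 3 the muscle sum was 1545 and the keratinocyte sum 390, close to values of other tumors. The part of these markers in the comparisons with skin and between groups was not tested.

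**Figure D5:**
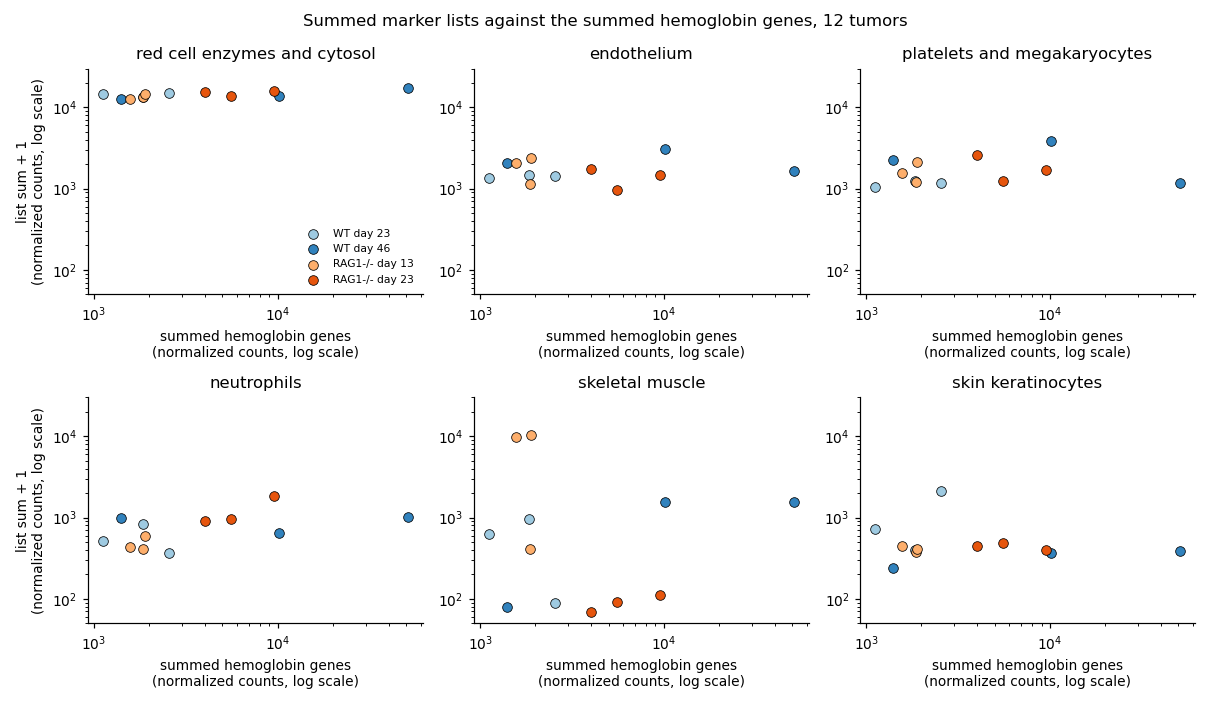
Summed normalized counts of 6 marker lists, with 1 added to each sum (vertical axes, log scale), against the summed hemoglobin genes (horizontal axes, log scale) in the 12 tumors. WT day 46 replicate 3, at the far right with 50895, is the highest tumor only for red cell enzymes. That enzyme list also summed to 12897 and 13499 in MC38 cells, within its tumor range of 12772 to 17180. The neutrophil sum is mostly Mmp9, and the 2 tumors high in muscle genes have hemoglobin sums of 1572 and 1895.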

How the data were processed

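RNA of 16 libraries of the 22 samples was analysed. For QuantSeq 3′ sequencing on the Ion Proton, the authors used Cutadapt, Trimmomatic, STAR, Bowtie2 and HTSeq with mm10, kept the primary alignment of reads with several matches, and deposited normalized counts, a signal equal to reads divided by a DESeq2 size factor per library. Versions, annotation and strand setting are not given in the sources used here. Dividing out the size factor gave whole reads for 100% of values (tolerance 0.01 reads). A second table with 6 per-sample columns was not used, since their names match no label.

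Log2(normalized count + 1), which understates changes of low genes, was fitted over all genes with a mean of at least 5 (limma 3.58.1 in R 4.3.3, with trend, Benjamini-Hochberg adjustment, threshold 0.05): the 12 tumors for tumor comparisons and 16 libraries for those with skin or MC38 cells. edgeR 4.0.16 (quasi-likelihood) and DESeq2 1.42.0 ran on recovered reads as alternatives. The summed hemoglobin genes were compared by two-sided exact permutation tests on log2(sum + 1), with Python 3.11.15 and scipy 1.17.1. The fits were tested on simulated data. Replicate libraries differed beyond sampling noise (chi-square per degree of freedom 9.03 to 96.3). Named genes are the 6 members, the 5 genes most correlated with their hemoglobin sum over 12 tumors, Rag1, and genes of the lists, some of them singled out after their values were seen, and the values of some are not reported here. Members and lists were chosen with earlier results of these data known.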

Additional observations from a re-analysis of the deposited data

Results flagged for a closer look

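WT day 46 replicate 3 stood far above the other 5 WT tumors in 10 quantities, by the gap to the next tumor as a share of the whole range. Its normalized counts were 14968 for Hba-a1, 11863 for Hba-a2, 17810.4 for Hbb-bs, 6254 for Hbb-bt, 493 for Alas2 and 65.3 for Slc4a1. The α genes summed to 26830.5, the β genes to 24064 and all 4 hemoglobin genes to 50895. Slc4a1 had 1.28 reads per 1000 hemoglobin reads in it. The gap was examined in 28 sets of a quantity and a group. That chance alone would mark about 1 in 20 holds only for normally distributed values. The values were taken on a linear scale and pooled over both days, so this rate cannot be relied on here. The 10 quantities share reads, so they are not separate events. No quantity was marked in the 6 RAG1-/- tumors. The cause was not tested.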

How the results depend on the processing

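Fitting only the compared groups raised the members called from 0 to 2 at day 23 and to 2 between the days of RAG1-/- tumors, DESeq2 gave 2 between the days of WT tumors, and the replicate block gave 4 against skin. Leaving out 1 library gave 0 to 3 members between the days of WT tumors and 0 to 5 against skin, and the difference of the log2 sum was -0.46 to 0.65 over both days, -2.01 to -1.07 against skin and 8.58 to 9.19 against MC38 cells. Over both days, leaving out 1 library gave log2 differences of -0.45 to 0.99 for Hba-a1, -0.24 to 1.11 for Hba-a2, -0.43 to 0.77 for Hbb-bs, -0.064 to 1.18 for Hbb-bt and -0.31 to 1.04 for Alas2, and for the interaction -0.53 to 2.34, -0.22 to 2.48, -0.86 to 1.54, -0.62 to 1.87 and -0.24 to 2.46. The turns of direction came without WT day 46 replicate 3, and other causes were not tested. Of 125 main values under other settings 121 kept their direction and side of the threshold. Over all genes at day 23, limma called 34 higher and 7 lower, edgeR 17 and 5, no filter 18 and 4, no trend 12 and 3, and DESeq2 158 and 81. Between days limma and edgeR called 0 genes (1261 in WT and 1722 in RAG1-/- tumors at an unadjusted p under 0.05 in limma), while DESeq2 called 25 higher and 16 lower in WT and 90 and 116 in RAG1-/- tumors. Same-numbered tumors did not pair (r = -0.236 to 0.246 over 18 pairs), and the block changed no other count of members called. Depth limits Slc4a1, which had 0 to 3 reads in 11 of the 12 tumors.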
